A study of Mus musculus with 16 samples.

Results

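Peroxisomal fatty acid oxidation was followed through 8 genes: Abcd2, Abcd3, Acox3, Ehhadh, Hsd17b4, Acaa1a, Acaa1b and Scp2. They were chosen by symbol, as the probes whose RefSeq accession belongs to one of these genes, and they are 8 of the 22911 gene symbols that could be assigned to probes of the array. RNA of brown adipose tissue (BAT) and gonadal white adipose tissue (gWAT) was measured on 16 Agilent arrays of 1 colour, 4 for each tissue and genotype. All mice were male, the labels give the strain as C57BL/6NCrSlc, and all carried floxed Pgam1 alleles. Adipo-Pgam1 KO mice were Adipoq-Cre+: Pgam1 flox/flox, and their littermate controls, called wild-type in the labels, were Adipoq-Cre-: Pgam1 flox/flox. Cre made under the adiponectin promoter acts in adipocytes of every depot, so a bulk sample of fat still holds the undeleted gene in its other cells. The age was 16 weeks, with the exception of Adipo-Pgam1 KO replicate 4, at 14 weeks in BAT and gWAT alike. Values are given as log2 of the processed signal intensity over the 75th percentile of the same array, and each gene stands for its brightest probe unless said otherwise.

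Fatty acids with very long or branched chains are shortened in peroxisomes. ABC transporters of the D family carry the acyl-CoA into the organelle, an acyl-CoA oxidase takes the first step and makes hydrogen peroxide, a bifunctional enzyme takes the next steps, and a thiolase splits off acetyl-CoA. The shortened chains then go to mitochondria. The pathway is abundant in BAT, and several of its genes are textbook targets of PPARα, a nuclear receptor for fatty acids.

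The 8 genes were covered by 11 probes, and each probe was well above background on all 16 arrays. All 8 genes were therefore tested in both tissues. Between 50.003% and 62.2% of all probes on an array were well above background, and the 75th percentile of the signal lay between 401 and 916. In BAT this percentile did not overlap between the genotypes, at 401 to 451 in controls and 650 to 916 in Adipo-Pgam1 KO mice. In gWAT it did, at 570 to 855 in controls and 657 to 831 in the arrays with the Adipo-Pgam1 KO label. In BAT, Pgam1 itself was lower in Adipo-Pgam1 KO mice (log2 change -1.74, limma adjusted p = 1.11e-05). In gWAT it was higher in the arrays with the Adipo-Pgam1 KO label (log2 change 0.95, adjusted p = 0.0139). The floxed exons are not named in the sources used here, so it is not known whether the Pgam1 probe lies in the deleted sequence. For this reason the gWAT arrays of this genotype are called KO-labelled arrays, and what is higher or lower in gWAT depends on the label being right. Markers of adipocytes were well above background on every array (8 of 8). Of 26 liver markers, 20 to 26 were well above background on the gWAT control arrays and 13 to 26 on the KO-labelled gWAT arrays, against 10 to 14 on the BAT arrays. The arrays lay on 3 slides. The BAT controls 1 to 3 lay on slide 1, while BAT control 4, all 4 BAT arrays of Adipo-Pgam1 KO mice and gWAT controls 1 to 3 lay on slide 2. Slide 3 held gWAT control 4 and the 4 KO-labelled gWAT arrays. The labels do not say which BAT and gWAT arrays came from the same mouse.

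Promoter sequence, the 250 bases before the annotated start (RefSeq, GRCm38.p6), was found for 6 of the 8 genes. The promoters of Ehhadh, Acaa1a, Acaa1b and Scp2 are shown because these enzymes were lower together in BAT of Adipo-Pgam1 KO mice and because each window holds one of the short sequences searched. PPARα binds DNA with its partner RXR at a direct repeat of AGGTCA, and CCAAT is bound by the general promoter factor NF-Y. Capitals mark AGGTCA in Scp2 and CCAAT in the other genes, and a site on the opposite strand reads ATTGG. The windows are chr16:21787835-21788084 on the minus strand for Ehhadh, chr9:119341044-119341293 on the plus strand for Acaa1a, chr9:119157094-119157343 on the minus strand for Acaa1b and chr4:108118548-108118797 on the minus strand for Scp2, each written 5′ to 3′ in the direction of its gene.
Ehhadh: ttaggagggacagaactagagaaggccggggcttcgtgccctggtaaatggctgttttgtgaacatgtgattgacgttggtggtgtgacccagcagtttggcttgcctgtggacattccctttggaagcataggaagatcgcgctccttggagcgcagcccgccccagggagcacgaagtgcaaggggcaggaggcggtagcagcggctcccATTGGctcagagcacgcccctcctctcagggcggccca
Acaa1a: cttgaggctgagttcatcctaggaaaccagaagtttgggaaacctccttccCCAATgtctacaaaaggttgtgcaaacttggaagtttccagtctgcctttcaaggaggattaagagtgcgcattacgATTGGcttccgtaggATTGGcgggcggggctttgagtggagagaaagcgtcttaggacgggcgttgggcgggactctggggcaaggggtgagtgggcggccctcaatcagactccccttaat
Acaa1b: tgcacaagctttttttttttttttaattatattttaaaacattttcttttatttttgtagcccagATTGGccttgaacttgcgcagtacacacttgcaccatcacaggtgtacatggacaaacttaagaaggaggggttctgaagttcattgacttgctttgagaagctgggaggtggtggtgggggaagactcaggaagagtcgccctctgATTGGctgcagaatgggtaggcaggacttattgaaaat
Scp2: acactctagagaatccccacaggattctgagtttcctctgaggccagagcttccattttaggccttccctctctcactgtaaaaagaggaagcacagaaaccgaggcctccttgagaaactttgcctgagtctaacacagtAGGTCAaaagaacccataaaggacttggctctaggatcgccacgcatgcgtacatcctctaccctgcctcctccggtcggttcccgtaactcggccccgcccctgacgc
On either strand, CCAAT was found once in the window of Ehhadh, 3 times in that of Acaa1a and at a pair of places in that of Acaa1b, and in 33.8% of all 32851 promoters of the same length. AGGTCA was found in the window of Scp2 alone among the 6 genes, from base -109 to base -104 before the start, and in 14% of all promoters. A direct repeat of AGGNCA with 1 base between the copies, where N is any base, was in none of the 6 windows and in 0.338% of all promoters. GGGCGG, the core of the box bound by Sp1, was in the windows of Acox3, Ehhadh, Acaa1a and Scp2 and in 32.7% of all promoters. These matches describe letters in a short window, and a factor may also bind farther away.

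In BAT, 7 of the 8 genes were lower in Adipo-Pgam1 KO mice compared with controls, and for these 7 the groups did not overlap. The largest decrease was that of Ehhadh, to 0.300 of the control level, and the smallest among the 7 was that of Acaa1b, to 0.488. Acox3 did not pass the threshold. These counts stand against a wide shift of the tissue: with limma and an adjusted p under 0.05, 61.5% of all genes tested in BAT were called, 34% as lower and 27.5% as higher, and the groups did not overlap in 57.1%. The median log2 change was -1.32 over the 8 genes and -0.08 over all genes tested.

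**Figure D1:**
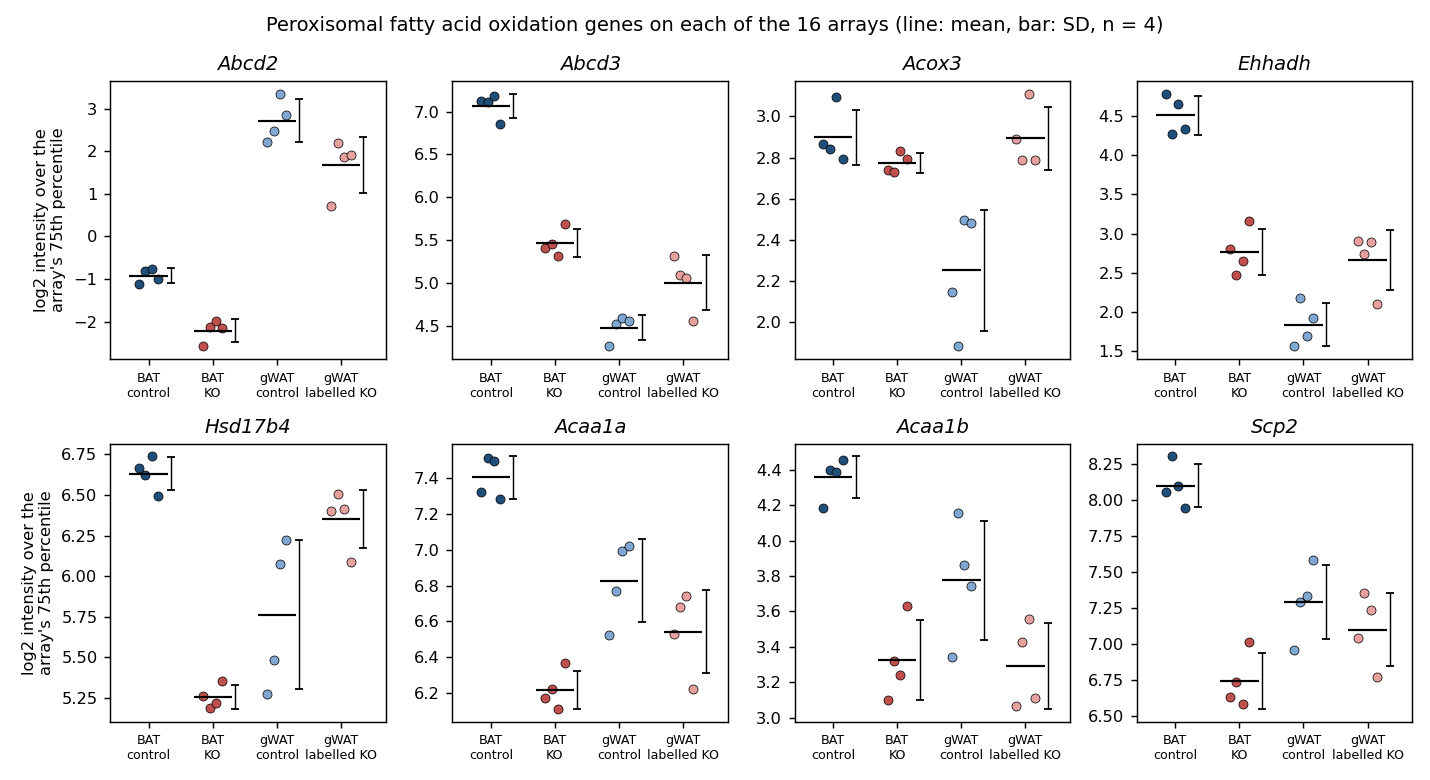
Log2 intensity over the 75th percentile of the array (y axis) for the 8 genes on the 16 arrays, grouped by tissue and genotype (x axis). Points are arrays, lines are means and bars are SD (n = 4). In BAT, the Adipo-Pgam1 KO points lie below all control points for every gene other than Acox3. Each panel has its own scale, and levels are not compared between genes.

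The transporters were both lower. Abcd3 (PMP70), the most abundant ABC protein of the peroxisomal membrane, stood at 7.12, 7.12, 7.18 and 6.86 in BAT of the 4 littermate controls. In Adipo-Pgam1 KO mice it stood at 5.41, 5.46, 5.31 and 5.69. The highest Adipo-Pgam1 KO array was thus below the lowest control, and the log2 change was -1.60 ± 0.12 (SE; adjusted p = 1.6e-05). Abcd2, which carries very long polyunsaturated acyl-CoA, was dim in BAT, with log2 values of -1.12, -0.80, -0.76 and -1.001 in controls. In Adipo-Pgam1 KO mice its values were -2.58, -2.12, -1.98 and -2.16, again without overlap (log2 change -1.29, standard error 0.15, adjusted p = 0.000126).

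Acox3, the oxidase for branched-chain acyl-CoA, was the exception. Its brightest probe, A_52_P745, read 2.87, 2.84, 3.09 and 2.79 in BAT of controls and 2.74, 2.73, 2.83 and 2.79 in Adipo-Pgam1 KO mice. The groups overlapped, and the log2 change was -0.12 with a 95% confidence interval from -0.34 to 0.10 (adjusted p = 0.291). The dimmer probes A_55_P1971579 and A_55_P1971574 changed by -0.25 and -0.13 and did not pass either. The sign of the Acox3 change turned under quantile normalization, to 0.02, and under spike-in scaling, to 0.43 (adjusted p = 0.0221), and it passed as lower under scaling by Actb and Rplp0 (-0.715, adjusted p = 0.000546). The median of all genes tested in BAT moved with these settings in the same order, to 0.02, 0.47 and -0.67.

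The bifunctional enzymes hydrate and dehydrogenate the chain. Ehhadh, the L-bifunctional enzyme and a classical PPARα target, stood at 4.78, 4.27, 4.65 and 4.33 in BAT of controls and at 2.81, 2.47, 2.65 and 3.16 in Adipo-Pgam1 KO mice. The gap between the groups exceeded 1 log2 unit, and the mean went from 4.51 ± 0.25 to 2.77 ± 0.29 (SD, n = 4 each), a log2 change of -1.74 (adjusted p = 6.53e-05). Hsd17b4, the D-bifunctional enzyme that also handles branched chains and bile acid precursors, read 6.67, 6.62, 6.74 and 6.49 in controls. In Adipo-Pgam1 KO mice it read 5.26, 5.18, 5.21 and 5.35. It had the smallest standard error among the 8 genes, 0.093, and changed by -1.38 (adjusted p = 1.22e-05).

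The thiolases were lower as a group. Acaa1a and Acaa1b, the straight-chain thiolases, are close copies of each other, so that signal shared between their probes was not tested. Acaa1a stood at 7.33, 7.51, 7.50 and 7.28 in controls and at 6.17, 6.22, 6.11 and 6.36 in Adipo-Pgam1 KO mice. Its log2 change was -1.19 (standard error 0.10, adjusted p = 2.9e-05), and its second, dimmer probe changed by a similar -1.11. Acaa1b read 4.19, 4.40, 4.39 and 4.46 in controls and 3.10, 3.32, 3.24 and 3.63 in Adipo-Pgam1 KO mice, which makes a log2 change of -1.03 ± 0.13 (SE; adjusted p = 0.000189). Scp2, which encodes both the thiolase for branched chains (SCPx) and a sterol carrier protein, read 8.05, 8.30, 8.09 and 7.94 in controls. In Adipo-Pgam1 KO mice Scp2 read 6.63, 6.73, 6.58 and 7.01, a log2 change of -1.36 (adjusted p = 4.44e-05). For each thiolase, the lowest control array lay above the highest Adipo-Pgam1 KO array. Replicate 4, the younger Adipo-Pgam1 KO mouse, was the highest of its group for all 3 thiolases and for Ehhadh, Hsd17b4 and Abcd3.

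For each of the 7 genes, the two-sided exact permutation test gave p = 0.0286, the smallest value that 4 arrays against 4 allow, and 0.0857 for Acox3. All 7 stayed lower and past the threshold in each of the alternatives run for BAT. The slide as a fixed block and the slide that holds both genotypes both set the Adipo-Pgam1 KO arrays against control 4 alone, whose own spread is assumed to be that of the other arrays. In the same arrays, the 8 adipocyte markers were all lower (summed linear level 2991 to 3344 in controls and 1155 to 1555 in Adipo-Pgam1 KO mice). Of 8 brown adipocyte markers, 7 were lower, all but Ppargc1a, with a median log2 change of -1.48 over the list. Their summed level was 3520.9 to 3821.3 in controls and 1195.3 to 1914.5 in Adipo-Pgam1 KO mice. Of 10 macrophage markers, 9 were higher (summed level 20.8 to 35.7 in controls and 100 to 156 in Adipo-Pgam1 KO mice). Skeletal muscle markers stood out on Adipo-Pgam1 KO replicate 1 (summed level 161) and replicate 3 (28.9), against 0.850 to 2.74 on the other BAT arrays. Without these 2 arrays, the same count of 7 genes was lower. The part of these cell types in the decreases was not tested, and in bulk tissue fewer cells of a type cannot be told apart from less RNA per cell.

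In gWAT, the pattern was different and rested on fewer calls. Acox3 and Ehhadh were higher in the KO-labelled arrays than in littermate controls, and none of the 8 genes passed as lower. In limma, 17.8% of all genes tested in gWAT were called, 9.99% as higher and 7.85% as lower, and the groups did not overlap in 24.2% of genes. Among the 8 genes, the groups did not overlap for Acox3 and Abcd2. The median log2 change was 0.17 over the 8 genes and 0.05 over all genes tested, and the sign of the former turned under quantile normalization (-0.08), with slide as a fixed block (-0.16) and without the 4 gWAT arrays with the most liver RNA (-0.22).

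**Figure D2:**
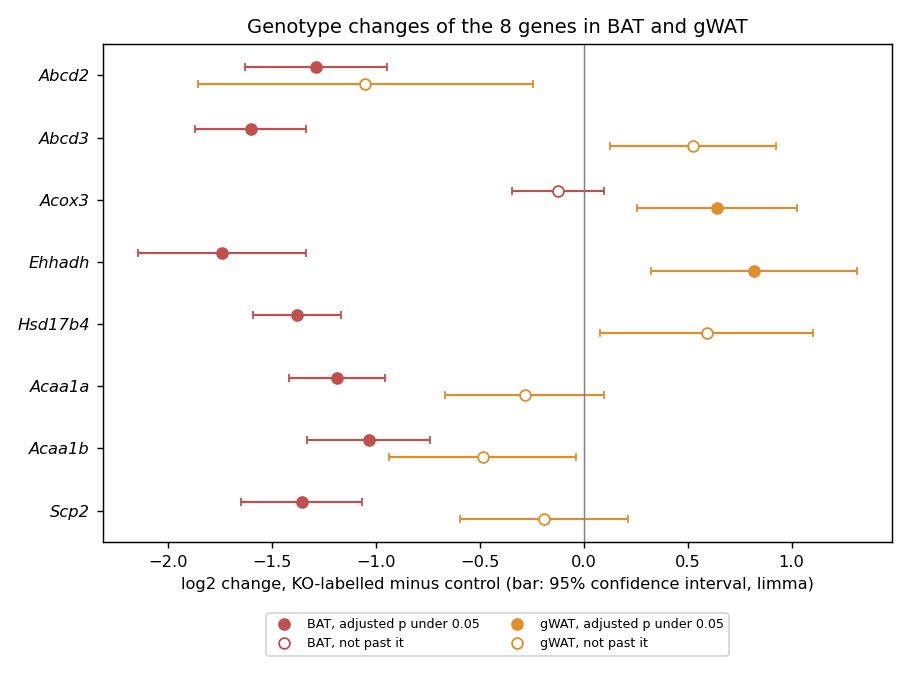
Log2 change between the KO-labelled and the control arrays (x axis) of each of the 8 genes (y axis) in BAT and gWAT. Points are limma estimates, bars are 95% confidence intervals, and filled points passed an adjusted p of 0.05. In BAT, 7 genes lie between -1.74 and -1.03, while in gWAT the estimates run from -1.05 to 0.82.

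Ehhadh read 1.56, 2.18, 1.70 and 1.92 in gWAT of controls and 2.91, 2.74, 2.90 and 2.10 in the KO-labelled arrays. Replicate 4 of the latter lay within the control range, and the log2 change was 0.82 ± 0.22 (SE; adjusted p = 0.0346). The brightest probe of Acox3 read 2.15, 1.88, 2.50 and 2.48 in controls and 2.89, 2.79, 3.11 and 2.79 in the KO-labelled arrays, and the log2 change was 0.64 ± 0.17 (SE; adjusted p = 0.034). The other probes of Acox3 disagreed, with log2 changes of 0.09 (adjusted p = 0.847) and -0.52 (adjusted p = 0.0699). The mean over the 3 Acox3 probes changed by 0.07 (adjusted p = 0.776).

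Hsd17b4 spread widely among the gWAT controls, which read 5.27, 5.48, 6.07 and 6.22, while the KO-labelled arrays read 6.40, 6.50, 6.42 and 6.09. The log2 change of 0.59 did not pass the threshold (standard error 0.23, adjusted p = 0.101). Abcd3 read 4.26, 4.51, 4.58 and 4.56 in controls and 5.31, 5.09, 5.06 and 4.55 in the KO-labelled arrays, so that replicate 4 alone reached into the control range (log2 change 0.52, adjusted p = 0.0709, and 0.67 with 0.0153 without that replicate). Abcd2 ran the other way. It read 2.21, 2.47, 3.35 and 2.85 in controls and 0.70, 2.19, 1.87 and 1.91 in the KO-labelled arrays, without overlap but with a log2 change of -1.05 that did not pass (standard error 0.35, adjusted p = 0.0719, exact permutation p = 0.0286). KO-labelled replicate 4, at 14 weeks, had a summed macrophage marker level of 253, against 74.7 to 133 on the others of its group. Its summed adipocyte marker level was the lowest of the group (2113). The part of age or of these cells in its values was not tested.

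The thiolases did not pass in gWAT. Acaa1a read 6.52, 6.77, 6.99 and 7.02 in controls and 6.53, 6.68, 6.74 and 6.22 in the KO-labelled arrays (log2 change -0.28, 95% confidence interval -0.67 to 0.10). Acaa1b read 3.34, 4.15, 3.86 and 3.74 in controls and 3.06, 3.43, 3.56 and 3.11 in the KO-labelled arrays (log2 change -0.49, 95% confidence interval -0.94 to -0.04, adjusted p = 0.118). Scp2 read 6.96, 7.29, 7.33 and 7.58 in controls and 7.04, 7.35, 7.23 and 6.77 in the KO-labelled arrays (log2 change -0.19, 95% confidence interval -0.59 to 0.21). The groups overlapped for all 3 thiolases, and control 1 was the lowest control for each.

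Liver RNA differed between the gWAT arrays. The mean log2 value over the 26 liver markers was 1.83, 4.998, -0.79 and -1.73 in controls 1 to 4 and -3.04, 3.38, 2.84 and 0.996 in replicates 1 to 4 of the KO-labelled arrays. Albumin (Alb), the defining product of hepatocytes, read 5.26, 7.86, 3.67 and 3.43 in the gWAT controls and 0.89, 6.28, 5.98 and 4.08 in the KO-labelled arrays, and it was well above background on all 8. Apoa1 and Ttr, secreted by the liver, were well above background on all 4 control arrays and on 3 of the 4 KO-labelled arrays. The brightest members of the list on any gWAT array were Cyp2e1 (9.42), which fat also expresses, Serpina1a (8.93) and Alb. The summed linear level of the list was 548 to 2380 in controls and 377 to 1081 in the KO-labelled arrays, but without Cyp2e1 it was 29.5 to 1846 and 13.4 to 605. In BAT, Alb was well above background on 1 of 8 arrays and Apoa1 and Ttr on none, with a summed level of 58.8 to 136, or 50.9 to 97.1 without Cyp2e1. Most of the latter was Kng1, which read 5.48 to 6.41 in BAT. The mean log2 value over the 26 markers was -4.06 to -3.23 in BAT.

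**Figure D3:**
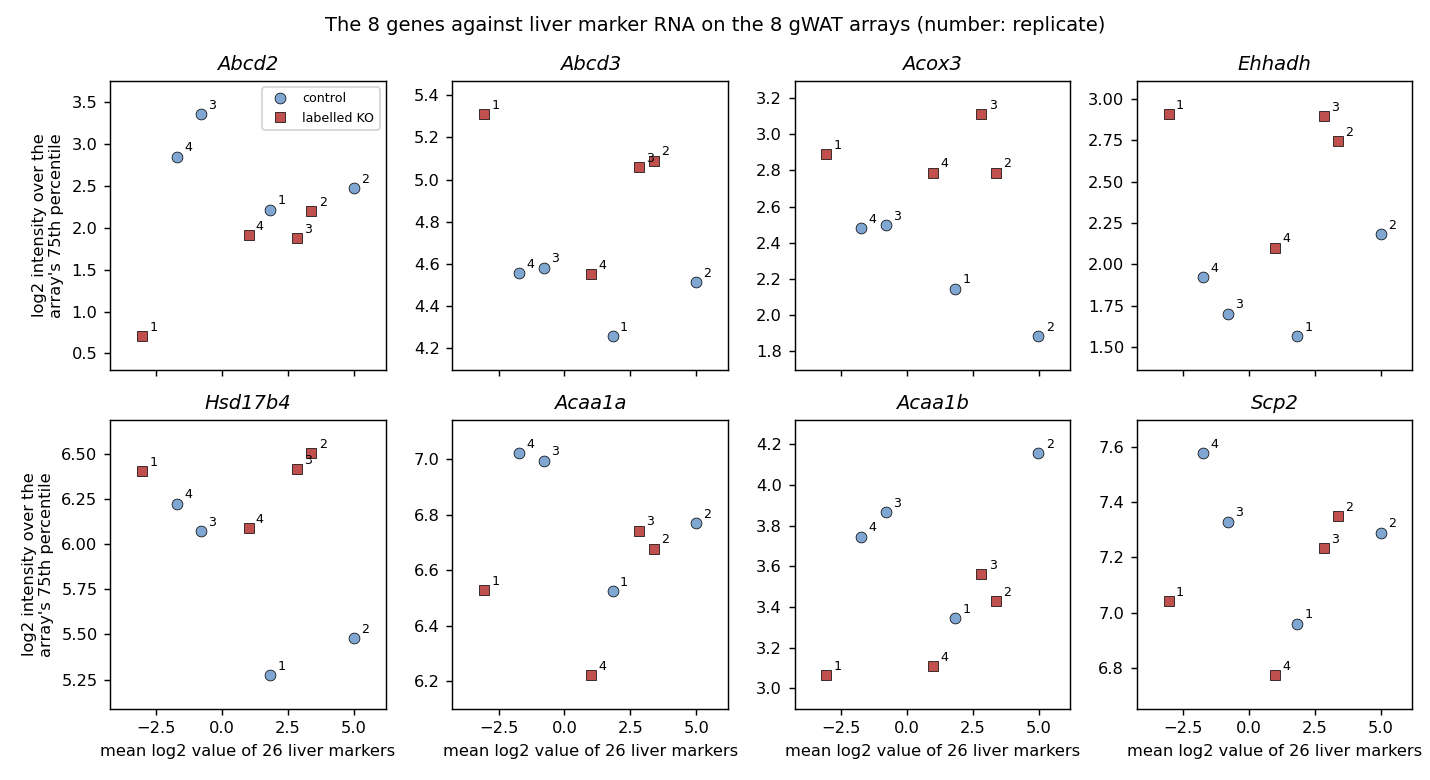
Log2 intensity of each of the 8 genes (y axes) against the mean log2 value of 26 liver markers (x axes) on the 8 gWAT arrays, with circles for controls, squares for KO-labelled arrays and the replicate number beside each point. Controls 1 and 2, with the most liver RNA among the controls, hold the lowest Acox3 and Hsd17b4 values. Replicates 2 and 3, with the most liver RNA among the KO-labelled arrays, hold the highest Hsd17b4 values of that group.

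The 2 controls with the most liver RNA, 1 and 2, were also those with the lowest Hsd17b4 (5.27 and 5.48) and the lowest Acox3 (2.15 and 1.88). Control 2, highest in liver RNA, had the highest Acaa1b and Ehhadh among the controls. Among the KO-labelled arrays, replicate 1 had the least liver RNA and the highest Abcd3, and the lowest Abcd2. Replicates 2 and 3, with the most liver RNA among the KO-labelled arrays, had the highest Hsd17b4 of that group (6.50 and 6.42). Replicate 3 also had its highest Acox3 (3.11), while replicate 2 read 2.79. Leaving out the 2 arrays of each genotype with the most liver RNA, a choice made after seeing the data, kept every sign but ended both calls: Ehhadh changed by 0.69 (adjusted p = 0.385), Acox3 by 0.35 (adjusted p = 0.54) and Hsd17b4 by 0.10. With the liver marker mean as a covariate, Ehhadh (0.82, adjusted p = 0.0452) and Acox3 (0.64, adjusted p = 0.0326) still passed. Single arrays also decided the calls: Ehhadh passed only with controls 1, 3 and 4 and KO-labelled replicates 1 to 3 all in the fit (adjusted p = 0.0564 to 0.0949 without any 1 of them), and Acox3 only with controls 1 and 2 and the same KO-labelled replicates (0.0685 to 0.0951). With slide as a fixed block, a fit that compares the KO-labelled arrays with control 4 alone, neither gene passed (Ehhadh 0.74, adjusted p = 0.336; Acox3 0.41, adjusted p = 0.461), while with the slide as a random block both did (0.0374 and 0.0369).

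Whether the genotype change itself differed between the depots was tested as an interaction over all 16 arrays. The change was more positive in gWAT than in BAT for 6 of the 8 genes, where 48.3% of all genes passed, 27.4% in that direction and 21% in the other. The difference was widest for Ehhadh, at 2.56 on the log2 scale (95% confidence interval 1.93 to 3.18, adjusted p = 2.14e-05), followed by Abcd3 at 2.13 (1.67 to 2.58, adjusted p = 9.02e-06) and Hsd17b4 at 1.97 (1.43 to 2.50, adjusted p = 4.09e-05). Scp2 (1.17, adjusted p = 0.000662), Acaa1a (0.90, adjusted p = 0.00154) and Acox3 (0.77, adjusted p = 0.00435) also passed. Acaa1b did not pass (0.55, 95% confidence interval 0.03 to 1.06, adjusted p = 0.0743, though 0.039 without BAT Adipo-Pgam1 KO replicate 4 and 0.0279 without gWAT control 2), nor did Abcd2 (0.24, 95% confidence interval -0.64 to 1.12). With slide as a fixed block, a fit that leaves control 4 of each depot as the only control, 3 of the 6 passed, namely Ehhadh, Abcd3 and Hsd17b4. The 2 dimmer probes of Acox3 did not pass here (0.34 and -0.39). Without the 4 liver-rich arrays, 5 passed and Acox3 did not (0.47, adjusted p = 0.0563). In that fit 32.2% of all genes passed, 53.6% of these as more positive in gWAT.

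The depots themselves differed in mice without Cre. In littermate controls, 7 genes were higher in BAT than in gWAT and 1, Abcd2, was higher in gWAT, and the groups did not overlap for any of the 8. Here 67.7% of all genes passed, 37% as higher in BAT and 30.7% as lower, and the groups did not overlap in 60.8%. Ehhadh was 6.34-fold higher in BAT (log2 difference 2.67, standard error 0.21, adjusted p = 4.14e-08) and Abcd3 6.02-fold (2.59, standard error 0.15, adjusted p = 2.45e-09). Smaller differences were seen for Hsd17b4 (0.87), Scp2 (0.81), Acox3 (0.65), Acaa1b (0.58) and Acaa1a (0.58), and the last 2 no longer passed with slide as a fixed block, a fit that sets BAT control 4 alone against gWAT controls 1 to 3 (adjusted p = 0.0748 and 0.0644). The 2 dimmer probes of Acox3 did not pass between the depots in controls (0.44 and 0.02). Under quantile normalization Acaa1a turned to -0.23 and Scp2 to -0.08. Abcd2 was 12.5-fold higher in gWAT (log2 difference -3.64, standard error 0.29, adjusted p = 5.72e-08), with its lowest gWAT control at 2.21 and its highest BAT control at -0.76.

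**Figure D4:**
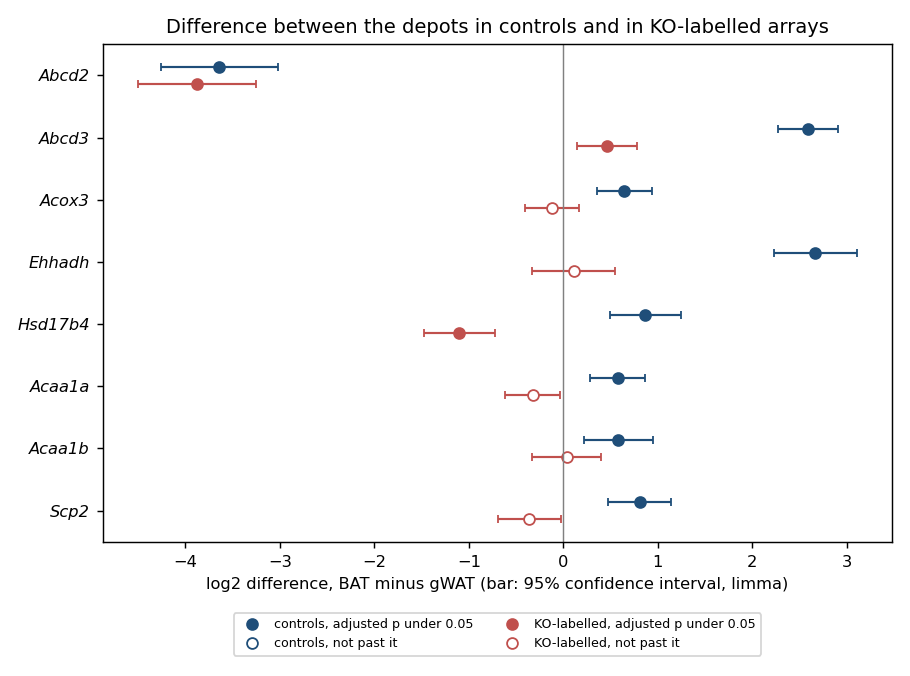
Log2 difference between BAT and gWAT (x axis, positive where BAT is higher) of each of the 8 genes (y axis), in controls and in KO-labelled arrays. Points are limma estimates and bars are 95% confidence intervals. Ehhadh goes from 2.67 in controls to 0.11 and Abcd3 from 2.59 to 0.46, while Abcd2 stays at -3.64 and -3.88.

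In the KO-labelled arrays, 3 of the 8 genes differed between the depots, where 46.3% of all genes passed, 23.4% as higher in BAT and 22.9% as lower, and the groups did not overlap in 43.1%. Abcd3 was higher in BAT (log2 difference 0.46, adjusted p = 0.0203, but 0.0657 without BAT replicate 4 and 0.0537 without gWAT replicate 4), and Hsd17b4 (-1.10, adjusted p = 0.000181) and Abcd2 (-3.88, adjusted p = 1.84e-07) were higher in gWAT. For Ehhadh the difference was 0.11 (95% confidence interval -0.33 to 0.55) and for Acaa1b 0.03 (-0.33 to 0.40). For Acox3 it was -0.12 (-0.41 to 0.17), for Acaa1a -0.33 (-0.62 to -0.04, adjusted p = 0.0619) and for Scp2 -0.36 (-0.69 to -0.03, adjusted p = 0.071). Without gWAT replicate 4, Acaa1a (-0.43, adjusted p = 0.0139) and Scp2 (-0.47, adjusted p = 0.0227) passed, and without BAT replicate 4, Scp2 did (-0.45, adjusted p = 0.0393). All BAT arrays of this genotype lay on slide 2 and all gWAT arrays on slide 3, so that slide and depot cannot be told apart within it. With slide as a fixed block, estimated through gWAT control 4 against gWAT controls 1 to 3, Abcd2 (-3.71) alone passed, and Hsd17b4 was -0.48 (adjusted p = 0.301).

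The order of the 4 groups differed between the genes. Hsd17b4 ran from BAT of controls (6.63 ± 0.10, SD, n = 4) over the KO-labelled gWAT arrays (6.35 ± 0.18) and gWAT of controls (5.76 ± 0.46) to BAT of Adipo-Pgam1 KO mice (5.25 ± 0.07), and the arrays of each neighbouring pair in this order overlapped. Abcd3 ran from BAT of controls (7.07 ± 0.14) over BAT of Adipo-Pgam1 KO mice (5.47 ± 0.16) and the KO-labelled gWAT arrays (5.002 ± 0.32) to gWAT of controls (4.48 ± 0.15), with overlap between the last 2 groups alone, although the middle 2 all but touched (5.31 in both). For Acaa1a and Scp2, BAT of controls came first and BAT of Adipo-Pgam1 KO mice last. Abcd2 had gWAT of controls first (2.72 ± 0.49) and BAT of Adipo-Pgam1 KO mice last (-2.21 ± 0.26), with no overlap between any of the 4 groups.

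Across the 16 arrays, the gene whose values ran most like those of Abcd3 was Coq10a, a coenzyme Q binding protein of mitochondria (Pearson's r 0.993), followed by Ndufc1, a complex I subunit (0.992). For Acaa1a it was Acsl1, a long-chain acyl-CoA synthetase (0.988), before Bloc1s1 (0.983), and for Scp2 it was Acaa1a itself (0.983), before Proca1 (0.982). Abcd2 ran with Magee1 (0.991) and Hebp1 (0.982), Ehhadh with Urgcp (0.988) and Zswim7 (0.983), and Hsd17b4 with Alg9 (0.973) and Ginm1 (0.964). Acox3 had the lowest best match, Alg3 (0.928), then Atp6v1a (0.916), and Acaa1b was matched by Dhrs7b (0.957) and 5530601H04Rik (0.953). These values describe 13585 genes over arrays of 4 shared groups, so that differences between groups enter each r.

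The rest of the pathway was counted in lists. The counts of each list stand against the shares of all genes tested. In BAT, 34% of these passed as lower and 27.5% as higher, and in gWAT 7.85% and 9.99%. Of 25 other enzymes and transporters of peroxisomal oxidation tested in BAT, 22 were lower and 1 was higher in Adipo-Pgam1 KO mice (median log2 change -1.39). Slc27a2, a peroxisomal and ER acyl-CoA synthetase, fell by 3.31, and the peroxisomal thioesterases Acot3 and Acot4 fell by 2.66 and 2.60. The 1 higher gene was Acox2, the oxidase for bile acid precursors, which rose by 3.52 (adjusted p = 2.1e-05). In gWAT, 3 of 24 were higher and none lower (median 0.26), a share of higher genes near the 9.99% of all genes. Acox2 rose by 2.83 (adjusted p = 0.034) and Acot6, another thioesterase, by 1.25 (adjusted p = 0.0128). The groups overlapped for Acox2, at -2.04 to 1.41 in controls and 1.06 to 3.10 in the KO-labelled arrays. The part of liver RNA in this change was not tested.

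Of the peroxins, which build the organelle and import its enzymes, 13 of 17 were lower in BAT and 1 was higher (median -0.75). Pex6 fell by 1.37, Pex3 by 1.24 and Pex16 by 1.03. The 1 higher gene was Pex5l (0.73), a relative of the import receptor that is best known from neurons and was well above background on 1 of 4 BAT control arrays. In gWAT, Pex5l (2.45) and Pex10 (0.61) were the 2 that were higher among 17 (median 0.17), with Pex5l well above background on 2 of 4 control arrays. This share too was near the 9.99% of all genes called higher in gWAT. Of 14 genes of ether lipid synthesis and other peroxisomal proteins, 11 were lower in BAT, led by the membrane proteins Pxmp2 (-2.70) and Pxmp4 (-1.87) and by the glutathione transferase Gstk1 (-1.56), and Xdh (1.06) and Far1 (0.995) were higher. In gWAT, Ddo (2.20), an amino acid oxidase, and the protease Tysnd1 (0.70) were higher and Gstk1 (-0.78) was lower, of 16 tested.

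Mitochondrial beta-oxidation, which takes the shortened chains, moved with the peroxisomal genes in BAT: all 16 enzymes tested were lower (median -1.56), with Acads (-2.02), Slc25a20 (-1.76) and Eci1 (-1.74) first. In gWAT, 6 of 16 were higher and none lower (median 0.42), led by the trifunctional protein subunits Hadha (1.82) and Hadhb (1.37) and by Acadvl (0.92). Of 18 known PPARα targets outside the peroxisome, 12 were lower and 4 higher in BAT. The lists are not separate: Acadm, Acadl and Acadvl are also among the mitochondrial enzymes, and Cpt1b, Cidea and Cidec among the fat cell markers. Acot1 fell by 3.91, Cidec by 2.40 and Vnn1 by 1.86, and Fgf21 (6.86), Creb3l3 (2.39) and Cpt1a (1.13) rose, Fgf21 and Creb3l3 from a control level well above background on 1 of 4 arrays, while Vnn1 was well above background on 3 of 4 Adipo-Pgam1 KO arrays. In gWAT, 9 of 19 were higher and none lower, with Cpt1b (4.23), Fgf21 (4.15) and Cidea (3.41) first, Fgf21 from 3 of 4 controls above background. Spike-in scaling moved the median of all genes to 0.47 in BAT and 0.44 in gWAT. Of all genes tested, 62.3% then passed in BAT, 80.3% of these as higher, and 41% in gWAT, 94.1% of these as higher. Under this scaling, 16 of the 25 other oxidation genes and 4 of the 17 peroxins were still lower in BAT. In gWAT, 14 of the 24 and 15 of the 17 were higher.

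**Figure D5:**
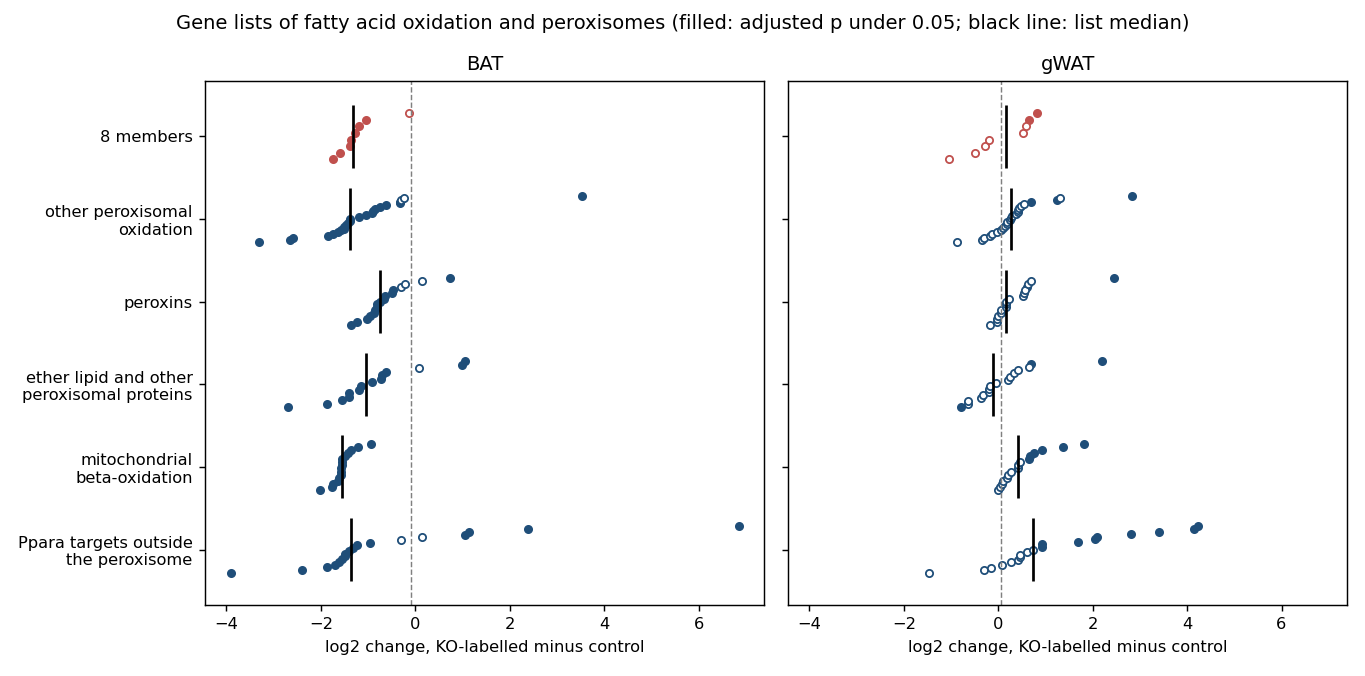
Log2 change between KO-labelled and control arrays (x axis) of each tested gene of 6 lists (y axis) in BAT and gWAT. Filled points passed an adjusted p of 0.05, black lines are list medians and the dashed line is the median of all genes tested. The 8 genes studied have a median of -1.32 in BAT and 0.17 in gWAT.

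Among the regulators, Ppara, the receptor itself, fell by 2.14 in BAT (adjusted p = 3.24e-05), and its coactivator Ppargc1b fell by 1.94 and its partner Rxra by 0.98. Pparg fell by 0.55 (adjusted p = 0.036), and Ppargc1a was at 0.63 with overlapping spread (standard error 0.49, adjusted p = 0.286). In all, 8 of 13 regulators were lower and 1, Tbx15 (1.13), was higher, but under spike-in scaling 2 were lower and 4 higher. In gWAT, 1 of 13 passed: the corepressor Nrip1 (RIP140) fell by 1.12 (adjusted p = 0.00316). Ppara (0.14), Pparg (0.07) and Ppargc1a (-0.52) did not pass there. Markers of other cell types moved in gWAT as well. Of 6 brown adipocyte markers tested, 5 were higher in the KO-labelled arrays, led by Elovl3 (4.35), Otop1 (4.24) and Cpt1b (4.23), and their list, of which Elovl3 was above background on 3 of 4 controls, had a summed level of 21.1 to 51.8 in controls and 113 to 299 in the KO-labelled arrays. Ucp1 was well above background on 3 of the 4 KO-labelled arrays and on no control, at least 7.35-fold higher. Of 10 macrophage markers, Trem2 (1.72) and Cd68 (1.48) were higher, of 8 adipocyte markers Adipoq (-0.89) was lower, and none of 21 liver markers or of 7 skeletal muscle markers passed. The summed level of the muscle list was 4.61 to 26.8 in controls and 31.2 to 59.3 in the KO-labelled arrays. In the latter it came mostly from Acta1 alone, with a mean log2 value of 5.48 against 3.28 in controls. The mean log2 value over the whole list was -3.13 to -1.86 in controls and -3.04 to -2.79 in the KO-labelled arrays. The part of these cells in the values of the 8 genes was not tested.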

How the data were processed

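RNA of BAT and gWAT from Adipo-Pgam1 KO and control mice was labelled with Cy3 and hybridized to Agilent mouse 8x60K arrays, 4 per group. The deposited values are processed signal intensity, which the authors extracted with Agilent Feature Extraction 10.7.1.1, background-subtracted and not yet scaled between arrays. The authors' normalized table, deposited as signal over the 75th percentile, was used as an alternative. RNA input is stated differently by the labels and the methods of the study. Here, log2 of the processed signal was taken minus that of the 75th percentile of each array, after averaging the spots of a probe and leaving out control spots and outlier spots. Of 35886 probes with a RefSeq accession, 32994 were named through RefSeq (GRCm38.p6). A gene was tested through its brightest probe if some group had this probe well above background on each of its 4 arrays. Changes were fitted with lmFit and eBayes of limma 3.58.1 in R 4.3.3, per tissue for the genotype and over all 16 arrays for depots and for the difference of changes, and p-values were adjusted over all genes tested by the method of Benjamini and Hochberg, with a threshold of 0.05. The exact permutation test was two-sided. A fold against a group with no array well above background is a lower bound, taken against the lowest signal well above background on each array or the probe's own, whichever was higher.

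The members and lists were chosen with earlier results of these data known. Named genes were all members with every probe, up to 3 genes per list, tissue and direction with the largest change past the threshold, Pgam1, the 2 genes most like each member, liver markers and Ppara, Pparg and Ppargc1a. The design text calls the samples of a group independent without naming the mice, so p-values measure the spread between these samples. No 2 arrays were duplicates (highest correlation 0.9931), and precision is limited by the array number. Scripts were tested on simulated data. Alternatives changed background correction, scaling, filter, probe choice, block, test and arrays, with normexp run on median signals. Inguinal fat was not analysed here. Some genes that this rule would name are not reported here.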

Additional observations from a re-analysis of the deposited data

Results flagged for a closer look

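The genotype change differed between BAT and gWAT, by the interaction in limma over 16 arrays, for 6 of the 8 genes. Of all genes tested, 48.3% passed, 27.4% in the same direction as these 6. The change in gWAT exceeded that in BAT by 2.56 for Ehhadh, by 2.13 for Abcd3 and by 1.97 for Hsd17b4 on the log2 scale. For Scp2 it did so by 1.17, for Acaa1a by 0.90 and for Acox3 by 0.77, where the 2 dimmer probes of Acox3 did not pass (0.34 and -0.39).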

How the results depend on the processing

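The slide as a fixed block leaves 1 control per depot in the genotype comparisons. In BAT, the 7 decreases kept their direction and passed in every alternative run. Acox3 turned to 0.022 under quantile normalization and to 0.43 under spike-in scaling, where 1 of the 8 genes was higher, and 17127 probes passed with probes as the unit. Under spike-in scaling 80.3% of the genes called in BAT were higher and 94.1% in gWAT, against 17.7% in BAT under Actb and Rplp0. The median of all genes in BAT was then 0.47 and -0.67, and the changes given under these scalings include that shift.

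In gWAT, the calls of Acox3 and Ehhadh were lost in many alternatives. None of the 8 genes was higher (0) under median centring (1384 genes called over all), without a filter on dim probes (1138), with the slide as a fixed block (184, of which 35.9% higher), with the replicate block (1087), by the methods' t-test after adjustment (1612), within the slide that holds both genotypes (121) and without the liver-rich arrays (94). Under spike-in scaling 5807 genes passed and 4 of the 8 were higher, with Acaa1a at 0.11 and Scp2 at 0.21. With Actb and Rplp0 (3042 genes, 21.5% of all, 53.25% of these higher), 4 were higher and 1 lower. With all 16 arrays in 1 fit (4040 genes, 28.6% of all, 60.35% of these higher), 4 were higher and 2 lower. Quantile normalization (3212 genes, 22.7% of all, 49.7% of these higher) gave 3 lower. The mean over probes (2547 genes, 18% of all) gave 1 higher, and the unadjusted t-test 1 lower among 4666 genes (33% of all). With probes as the unit, 5771 passed.

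The difference between depots had 13886 probes, and 3265 genes and 3 of the 8 with the slide as a fixed block. Abcd2 turned to -0.090 under normexp and to -0.51 without the liver-rich arrays. In controls, quantile normalization left 4 higher and 2 lower, with Acaa1a at -0.23 and Scp2 at -0.080, 18940 probes passed, and 1 slide alone gave 4738 genes and 2 higher. Of all genes, 68.4% passed in controls under quantile normalization, 46.1% of these as higher in BAT. In KO-labelled arrays, Ehhadh turned to -0.0021 under normexp and -0.090 under Actb and Rplp0. Acaa1b turned to -0.021 under median centring, -0.045 under spike-in scaling, -0.17 under Actb and Rplp0 and -0.0094 with the slide block. Acox3 was 0.13 over the mean of probes and 0.19 with the slide block, and Scp2 0.026. Of the 8, 4 were lower under quantile normalization, spike-in scaling and Actb and Rplp0, and 0 higher under median centring, Actb and Rplp0, the slide block (1783 genes, 1 lower) and without the liver-rich arrays. Of all genes, 48.4% passed here under quantile normalization, 39.4% under spike-in scaling and 45.7% under Actb and Rplp0. Of these, 51.0%, 39.1% and 28.5% were higher in BAT. With probes as the unit, 13326 passed. The cause of these changes was not tested.

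Leaving out 1 array at a time gave 7880 to 8713 genes in BAT. In gWAT it gave 1143 to 3237 genes and 0 to 3 of the 8 as higher, with Acox3 from 0.52 to 0.72 and Ehhadh from 0.73 to 1.01. For the difference it gave 6502 to 7595 genes and 6 to 7 of the 8, for controls 9117 to 9454 genes, and for KO-labelled arrays 5641 to 6700 genes, 0 to 1 higher and 2 to 4 lower, with Acaa1b from -0.069 to 0.12 and Ehhadh from -0.078 to 0.21. The labels do not tie arrays of the same number to each other, and not every pair deviated together (correlation -0.14 to 0.45 between genotypes and -0.15 to 0.30 between depots), so pairing is neither shown nor excluded. The replicate block in BAT left 8610 genes and the same 7 lower. With genotype and number as a replicate block between depots, 7219 genes passed for the difference, 9713 in controls and 6735 in KO-labelled arrays, with the same counts of the 8.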
